A study of Mus musculus with 6 samples.

Results

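The 10 genes described here encode 4 subunits of the AMPA receptor (Gria1 to Gria4) and 6 of the NMDA receptor (Grin1, Grin2a, Grin2b, Grin2c, Grin2d and Grin3a), out of 49315 genes counted in mouse cerebral cortex. They were chosen by name as receptor subunit genes, with earlier results of these data known, and all 10 had enough reads to be tested, among 17185 genes that were. The study set 3 cortex samples given an shRNA against Fabp7 (shFabp7) against 3 given a scrambled shRNA (shScr). All 6 samples were wild type, received the shRNA in an AAV-PHP.eB vector that also carries GFP and is driven by a Gfap promoter at 21 days of age, and then had LPS (lipopolysaccharide, a product of Gram-negative bacteria that provokes an immune response) at 1 mg/kg on 3 weekly occasions from 4 months of age, with tissue collected 24 h after the last dose. The promoter directs the shRNA mainly to astrocytes, whereas most of the subunits are neuronal, and the RNA came from whole cortex, so less RNA per cell and fewer cells of a type cannot be told apart. There was no group without LPS. The labels do not name the animals behind the samples, so p-values measure only the spread between samples.

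AMPA and NMDA receptors are the ligand-gated channels that carry most fast excitatory transmission between cortical neurons. AMPA receptors are tetramers of GluA subunits that open and close within milliseconds, and the GluA2 subunit (Gria2), edited in its RNA, makes them nearly impermeable to calcium. NMDA receptors pair the obligatory GluN1 subunit (Grin1) with GluN2 or GluN3 subunits, need glycine or D-serine beside glutamate, and admit calcium. As the cortex matures, GluN2A (Grin2a) joins or replaces the earlier GluN2B (Grin2b).

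The libraries held 16914012 to 18991235 counted reads, and the 10 genes took 0.287% to 0.311% of them. Fabp7, the targeted gene, had 5.56, 2.49 and 3.52 CPM in shFabp7 libraries 1 to 3, against 26.3, 15.2 and 15.8 CPM in shScr libraries 1 to 3 (CPM, each gene's count scaled to the size of its library with TMM factors). Its log2 fold change was -2.31 ± 0.35 (SE), and the adjusted p was 0.0704 in edgeR and 5.23e-13 in DESeq2. The labelled tissue was checked on cortical neuron genes: Slc17a7, the vesicular glutamate transporter of cortical projection neurons, had 1565, 1536 and 1283 CPM in shFabp7 and 991 (library 1), 1327 and 1383 CPM in shScr. The shScr library 1 was lowest for it and stood apart in the mean level of 16 excitatory neuron markers, which was 6.50, 6.55 and 6.44 log2 CPM in shFabp7 and 5.87, 6.45 and 6.27 log2 CPM in shScr. Subunit results are therefore also given without that library.

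Across the 10 subunits, the quasi-likelihood test of edgeR called 0 at an adjusted p under 0.05, where it called 0.116% of all genes tested. At an unadjusted p under 0.05 there were 5 subunits, against 16.8% of all genes. Of these, 4 were higher in shFabp7, where 8.44% of all genes were, and 1 was lower, where 8.32% were, and all 5 were NMDA subunits. The groups did not overlap for the same 5 (Grin1, Grin2a, Grin2b, Grin2c and Grin3a), a property of 22.9% of all genes, with 11.4% higher and 11.5% lower. DESeq2 called 2 of the 10 and 4.05% of all genes, namely Grin2a higher, as for 2.25% of genes, and Grin3a lower, as for 1.80%. With no filter on low counts edgeR called Gria1, Grin1, Grin2a and Grin3a, and 5.23% of all genes. The median of the 10 log2 fold changes was 0.10, and 7 of 10 lay above 0. Over all genes tested the median was -0.01, and 48.5% lay above 0.

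The count of 5 was also taken with each library left out. On the same CPM values it could only stay or rise, because leaving out a library cannot make separate groups overlap. It stayed at the same 5 genes without shFabp7 library 1, 2 or 3 and without shScr library 1, where 34.5%, 29.6%, 33.1% and 30.7% of all genes had groups that did not overlap. Without shScr library 2 it was 8, against 39.6% of all genes, with Gria1, Gria3 and Gria4 added. Without shScr library 3 it was 6, against 33.5%, with Grin2d added. For a single gene the exact two-sided permutation test of 3 against 3 cannot go below p = 0.1.

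**Figure D1:**
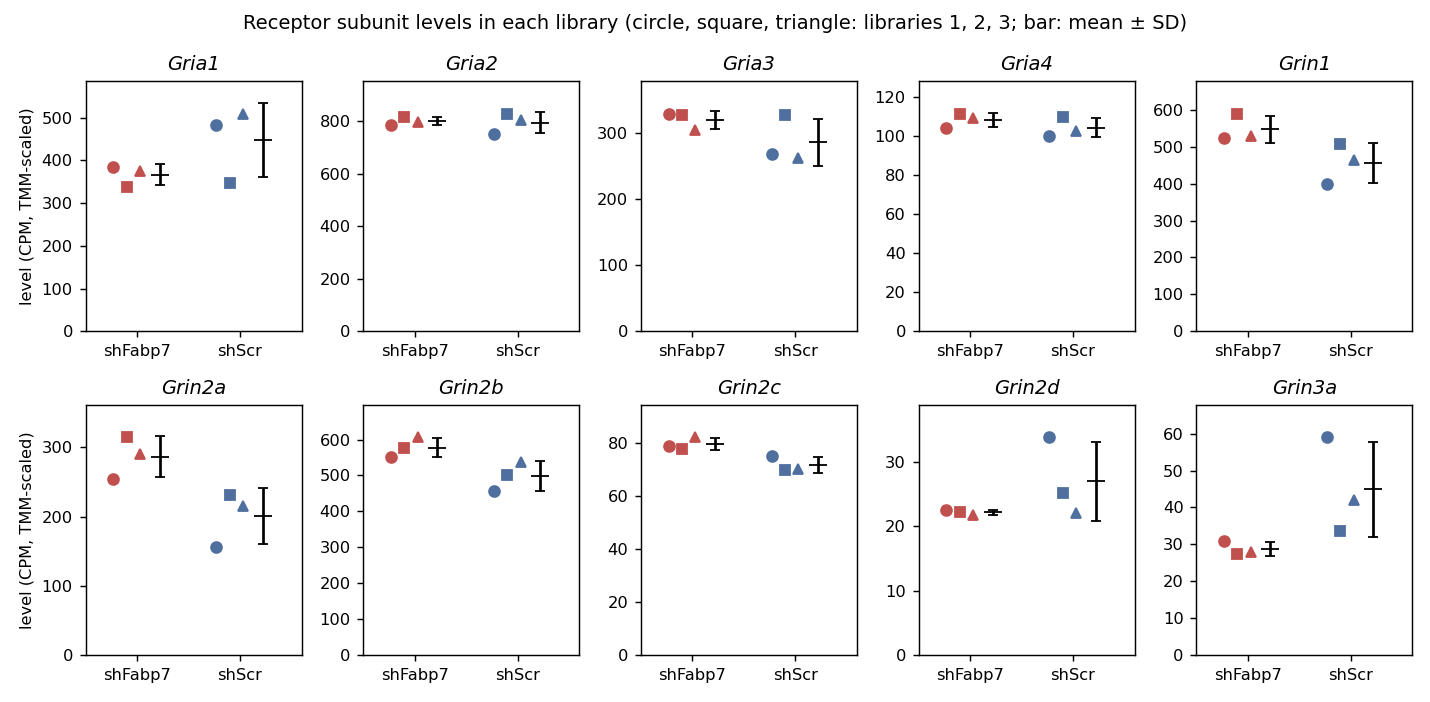
Level of each subunit gene (CPM after TMM scaling, axis from 0) in the 3 shFabp7 libraries (left, red) and the 3 shScr libraries (right, blue), with mean and SD as bars. Grin1, Grin2a, Grin2b and Grin2c lie higher in every shFabp7 library than in any shScr library, Grin3a lies lower, and the groups of the 4 AMPA subunits and of Grin2d overlap.

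Gria2 encodes the subunit that decides the calcium permeability of AMPA receptors. Gria2 (ENSMUSG00000033981) spans positions 80681450 to 80802835 of chromosome 3, minus strand, in the build GRCm38. Its level was 788, 816 and 799.8 CPM in shFabp7 libraries 1 to 3, against 751, 829.8 and 806 CPM in shScr libraries 1 to 3. The groups overlapped, and the means were 801 ± 14.2 CPM in shFabp7 and 795 ± 40.5 CPM in shScr (SD, n = 3 each). The log2 fold change was 0.01 with a 95% interval of -0.13 to 0.16.

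Gria1 encodes GluA1, a subunit whose trafficking into synapses follows activity. Gria1 (ENSMUSG00000020524) spans positions 57011387 to 57330244 of chromosome 11, plus strand. It had 385, 339 and 375 CPM in shFabp7 and 483, 348 and 509 CPM in shScr. Libraries 1 and 3 of shScr were high, and library 2 fell among the shFabp7 libraries. The log2 fold change was -0.29 ± 0.14 (SE), with an interval of -0.61 to 0.04 and an adjusted p of 0.347 by edgeR. With shScr library 2 left out it was -0.44 and was called (adjusted p of 0.0169 by edgeR), as were 5.14% of all genes, and with shScr library 2 as the only shScr library it was 0.07.

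Gria3, on the X chromosome from 41400854 to 41678601, encodes GluA3, a partner of GluA2. It had 328, 326 and 304 CPM in shFabp7 and 267, 327 and 262 CPM in shScr. Its shScr library 2 again lay with the shFabp7 libraries. This gave a log2 fold change of 0.16 ± 0.09 (SE), which was 0.27 without shScr library 2 (adjusted p of 0.0563 by edgeR) and 0.11 without shScr library 3. Gria4, on chromosome 9 from 4417896 to 4796234, encodes GluA4, which is prominent in parvalbumin interneurons and thalamus, and it had 104, 111 and 109 CPM in shFabp7 and 100.1, 109.8 and 103 CPM in shScr. Its log2 fold change was 0.06 ± 0.06 (SE). Adjusted p-values by edgeR were 0.389 for Gria3 and 0.690 for Gria4.

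Grin1 encodes GluN1, which every NMDA receptor contains. Grin1 (ENSMUSG00000026959) spans positions 25291181 to 25319187 of chromosome 2, minus strand. It had 523, 589.8 and 529 CPM in shFabp7, against 400.0, 508 and 463 CPM in shScr. Each shFabp7 library was above every shScr library, by a narrow margin for shScr library 2. The means were 547 ± 36.8 CPM in shFabp7 and 457 ± 54.3 CPM in shScr (SD, n = 3 each), and the log2 fold change of 0.26 had an interval of 0.05 to 0.47 and an adjusted p of 0.211 by edgeR. An antisense gene, Grin1os, shares 13.5% of the Grin1 exon sequence, and no source used here says how strand was treated in counting, so the gene behind reads in that shared stretch is uncertain. Grin1os itself was counted at 783, 859 and 898 reads in shFabp7 and 777, 939 and 785 reads in shScr, which overlapped.

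Grin2a encodes GluN2A, the GluN2 subunit of the mature cortex, and had the largest positive log2 fold change of the 10. Grin2a (ENSMUSG00000059003) spans positions 9567898 to 9995560 of chromosome 16, minus strand. Its level was 255, 314 and 290.5 CPM in shFabp7 libraries 1 to 3, against 155, 232 and 215 CPM in shScr libraries 1 to 3. The groups did not overlap, and shScr library 1 was the lowest of the 6. The means were 287 ± 29.9 CPM in shFabp7 and 201 ± 40.1 CPM in shScr (SD, n = 3 each). The log2 fold change was 0.51 ± 0.16 (SE), with an interval of 0.14 to 0.89. The adjusted p was 0.193 by edgeR and 0.0106 by DESeq2.

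Grin2b encodes GluN2B, which predominates early in life and stays abundant in the adult forebrain. Grin2b (ENSMUSG00000030209) spans positions 135713233 to 136173511 of chromosome 6, minus strand. It had 551, 576 and 606 CPM in shFabp7 and 456, 502 and 538 CPM in shScr. The highest shScr library, library 3, lay just under the lowest shFabp7 library. A log2 fold change of 0.21 ± 0.08 (SE) resulted, with an interval of 0.04 to 0.38 and an adjusted p of 0.216 by edgeR.

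Grin2c encodes GluN2C, known from cerebellar granule cells and, in the forebrain, from astrocytes. Grin2c (ENSMUSG00000020734) spans positions 115249169 to 115267243 of chromosome 11, minus strand. It had 79.1, 77.8 and 82.3 CPM in shFabp7, against 75.3, 69.8 and 70.4 CPM in shScr. Here the spread was small in both groups, at an SD of 2.29 CPM in shFabp7 and 2.98 CPM in shScr. The log2 fold change of 0.15 had an interval of 0.02 to 0.28 and an adjusted p of 0.252 by edgeR. The list of 16 astrocyte markers had a mean of 7.50, 7.60 and 7.61 log2 CPM in shFabp7 and 7.60, 7.54 and 7.59 log2 CPM in shScr, so those means overlapped. Its members went both ways: where the groups did not overlap, 5 were higher and 4 lower, against 11.4% and 11.5% of all genes. Gfap, an intermediate filament gene, had -0.79 ± 0.12 (SE) and Glul, the glutamine synthetase gene, 0.33 ± 0.06 (SE), with adjusted p-values of 0.0597 and 0.0720 by edgeR and 1.36e-07 and 0.00107 by DESeq2.

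Grin2d encodes GluN2D, a subunit of early development and of interneurons. Grin2d (ENSMUSG00000002771) spans positions 45831883 to 45878378 of chromosome 7, minus strand. It had 22.5, 22.2 and 21.8 CPM in shFabp7 and 33.8, 25.1 and 22.0 CPM in shScr. The 3 shFabp7 libraries were close together, and shScr library 3 lay among them. Its log2 fold change was -0.28 ± 0.15 (SE), with an adjusted p of 0.363 by edgeR, and was -0.09 without shScr library 1. Gm45441 on the opposite strand shares 9.66% of its exon sequence.

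Grin3a encodes GluN3A, a juvenile subunit that binds glycine and lowers calcium entry, and it had the largest negative log2 fold change of the 10. Grin3a (ENSMUSG00000039579) spans positions 49661611 to 49845744 of chromosome 4, minus strand. Its level was 30.8, 27.5 and 28.0 CPM in shFabp7, against 59.0, 33.6 and 42.0 CPM in shScr. The groups did not overlap, and shScr library 1 was far above the others. The means were 28.8 ± 1.81 CPM in shFabp7 and 44.9 ± 12.9 CPM in shScr (SD, n = 3 each). The log2 fold change was -0.64 ± 0.20 (SE), with an interval of -1.13 to -0.16. The adjusted p was 0.205 by edgeR and 0.0135 by DESeq2. Without shScr library 1 the value was -0.39 (adjusted p of 0.111 by edgeR). Without shScr library 2 it was -0.81 and was called (adjusted p of 0.0211 by edgeR), in a fit that called 5.14% of all genes.

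**Figure D2:**
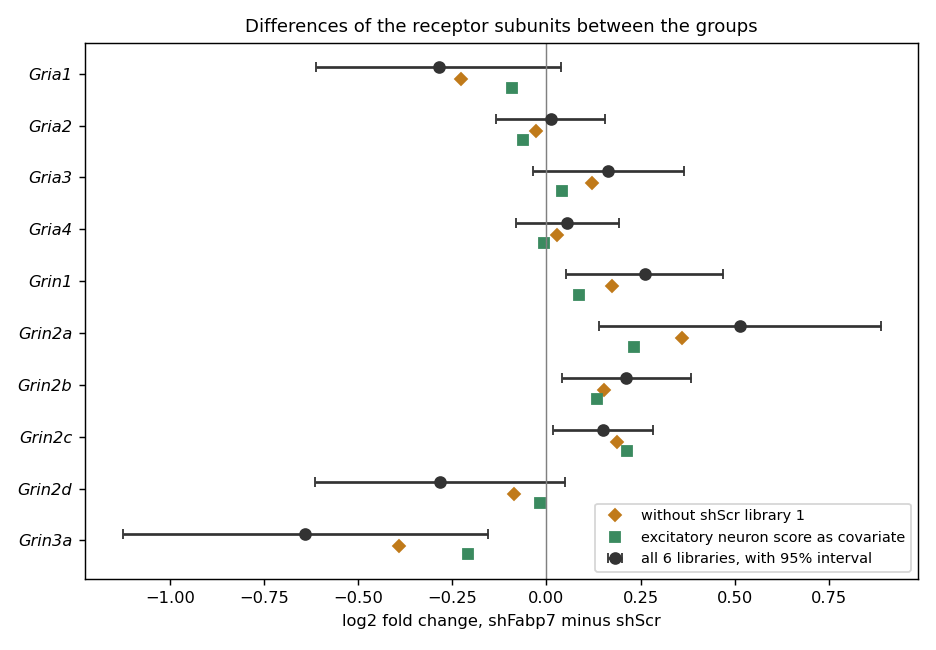
Log2 fold change of each subunit, shFabp7 minus shScr, from all 6 libraries (black circles, bars are 95% intervals), without shScr library 1 (orange diamonds) and with an excitatory neuron marker score in the model (green squares). Grin2a has 0.51, 0.36 and 0.23 in the 3 fits and Grin3a has -0.64, -0.39 and -0.21, whereas Grin2c has 0.15, 0.19 and 0.21.

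Markers of other cell types and regions differed between the libraries as well. Of 16 excitatory neuron markers 12 had log2 fold changes above 0 and 0 were called by edgeR. At an unadjusted p under 0.05, 3 were higher (8.44% of all genes were), and DESeq2 called 2 higher (2.25% of all genes). The summed level of the 16 ran from 3036 to 3480 CPM in shFabp7 and from 2234 to 3014 CPM in shScr. Thalamic and hypothalamic markers were above 0 for 4 of 13 tested, with a mean of 1.90, 1.76 and 1.76 log2 CPM in shFabp7 and 3.43, 2.31 and 2.05 log2 CPM in shScr, and a summed level of 152 to 174 CPM in shFabp7 and 158 to 235 CPM in shScr. Oxt, a hypothalamic peptide gene of that list, had 0 reads in shScr library 3. Hippocampal markers were above 0 for 2 of 11 tested, with means of 3.15, 2.88 and 3.04 log2 CPM in shFabp7 and 3.66, 3.09 and 4.47 log2 CPM in shScr. Their sums were 377 to 392 CPM in shFabp7 and 354 to 509 CPM in shScr. Of the 11, edgeR called 0, and DESeq2 called 1 higher and 3 lower, against 2.25% and 1.80% of all genes. Striatal markers were above 0 for 4 of 12. Their sums were 679, 528 and 1712 CPM in shFabp7 libraries 1 to 3 and 1445, 602 and 840 CPM in shScr libraries 1 to 3. The shFabp7 library 3 and shScr library 1 were thus the highest of their groups. Inhibitory neuron markers, above 0 for 5 of 16, had sums of 1893 to 1984 CPM in shFabp7 and 1821 to 2137 CPM in shScr. Microglial markers were below 0 for 10 of 12, with a median of -0.21 and sums of 503 to 560 CPM in shFabp7 and 578 to 611 CPM in shScr, which did not overlap. Of the 12, edgeR called 0, and 6 were lower at an unadjusted p under 0.05 (8.32% of all genes were). Groups were apart and lower for 7 (11.5% of all genes), and DESeq2 called C1qa, C1qb and Itgam lower (1.80% of all genes). The part of these differences in the subunit results was not tested. Fits with marker scores in the model follow, and those scores hold no microglial marker. The excitatory score ran from 6.44 to 6.55 log2 CPM in shFabp7 and from 5.87 to 6.45 log2 CPM in shScr. It thus moved with the groups, and such a fit cannot separate the score from the group.

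Without shScr library 1, the direction of 9 subunits was kept and Gria2 had -0.03. Grin1 had 0.17, Grin2a 0.36, Grin2b 0.15 and Grin3a -0.39 in that comparison. In that comparison 0 of the 10 were called by edgeR, which called 1.04% of all genes. With the mean level of the excitatory neuron markers in the model, Grin1 had 0.09, Grin2a 0.23, Grin2b 0.13 and Grin3a -0.21, each smaller in size than without it. Grin2c moved the other way, to 0.21. A regional score set excitatory neuron markers against those of hippocampus, striatum, and thalamus and hypothalamus. It gave 0.07 for Grin1, 0.24 for Grin2a, 0.22 for Grin2c and -0.21 for Grin3a. With either score 0 of the 10 were called. Over all genes edgeR called 0.338% with the first score and 0.0582% with the second.

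**Figure D3:**
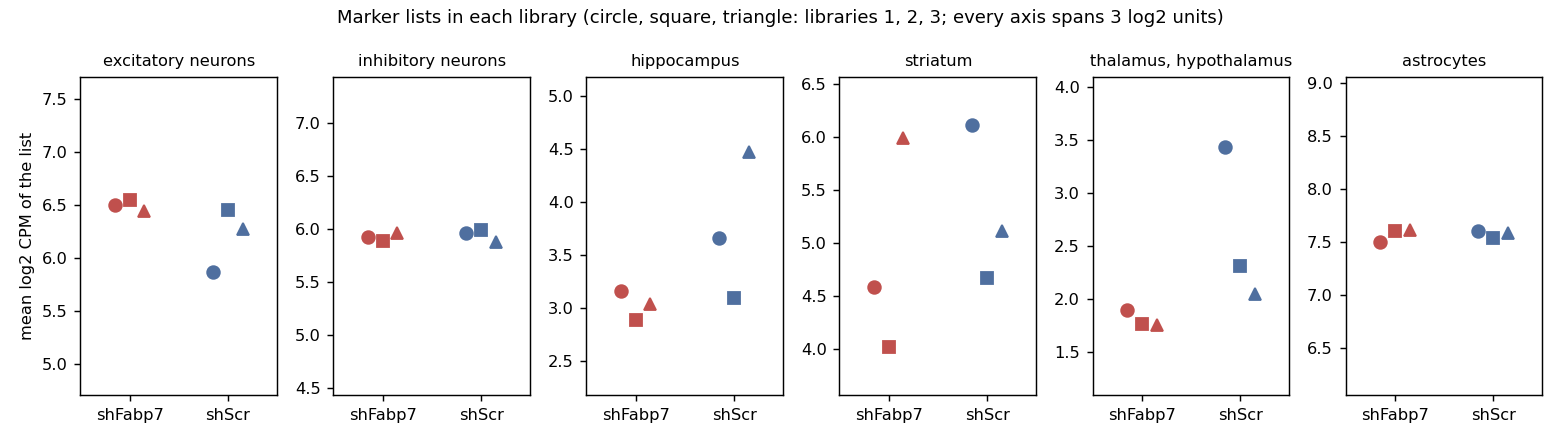
Mean log2 CPM of 6 marker lists in each library (left, red, shFabp7; right, blue, shScr), with every axis spanning 3 log2 units. The shScr library 1 (blue circle) is lowest for excitatory neurons at 5.87 and highest for thalamus and hypothalamus at 3.43, and shScr library 3 (blue triangle) is highest for hippocampus at 4.47.

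Levels of different subunits were compared per length, as RPKM (CPM per kilobase of exon sequence, all isoforms joined, as the files give it). Over all 6 libraries Gria1 averaged 67.3 RPKM, Grin1 51.8 and Gria2 51.4. Gria1 was above Grin1 in 5 of 6 libraries. Grin1 had 54.0, 60.8 and 54.6 RPKM in shFabp7 and 41.2, 52.4 and 47.7 RPKM in shScr, and Gria2 had 50.7, 52.5 and 51.4 RPKM in shFabp7 and 48.3, 53.4 and 51.8 RPKM in shScr. Grin1 was thus above Gria2 in the 3 shFabp7 libraries and below it in the 3 shScr libraries, a difference between groups that was not tested. This order rests on the exon lengths used, 9700 bases for Grin1 and 15548 for Gria2. In CPM, without length, Gria2 was above Grin1 in every library. Gria3 at 30.7 RPKM, Grin2b at 21.7 and Gria4 at 16.9 followed, each with a range clear of the one before it. Gria4 was above Grin2c in 6 of 6 libraries, though their ranges met. Grin2c averaged 15.8 ± 0.455 RPKM in shFabp7 and 14.3 ± 0.592 RPKM in shScr (SD, n = 3 each). Grin2a averaged 16.0 ± 1.67 RPKM in shFabp7, level with Grin2c within the spread, and 11.2 ± 2.24 RPKM in shScr, where it was the lower of the pair in all 3 libraries. Grin2d at 3.69 RPKM and Grin3a at 3.00 were lowest, and their order held in 5 of 6. Long exon sequence, such as the 24842 bases of Grin2b, lowers the RPKM of a gene whose main transcript is shorter.

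Ratios of subunits within a library do not depend on the scaling between libraries. Grin2a over Grin2b, on the RPKM scale, was 0.641, 0.756 and 0.664 in shFabp7 libraries 1 to 3, against 0.472, 0.639 and 0.555 in shScr libraries 1 to 3. The groups did not overlap, though shScr library 2 came within a small step of shFabp7 library 1. The mean difference of the log2 ratio was 0.31, with p = 0.1 in the exact two-sided permutation test, the smallest it can give, and was 0.20 without shScr library 1. Gria1 over Gria2 was 1.26, 1.07 and 1.21 in shFabp7 and 1.66, 1.08 and 1.63 in shScr, which overlapped (difference of log2 ratios -0.28, exact permutation p = 0.3). That difference was -0.17 without shScr library 1, -0.48 without shScr library 2 and -0.19 without shScr library 3.

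Summed over subunits, the AMPA genes had 164, 159 and 162 RPKM in shFabp7 and 171, 161 and 179 RPKM in shScr, and these groups overlapped. The NMDA genes had 112, 123 and 117 RPKM in shFabp7 and 93.1, 106 and 102 RPKM in shScr, which did not. The NMDA sum was 0.681, 0.769 and 0.724 of the AMPA sum in shFabp7 and 0.544, 0.656 and 0.570 of it in shScr. Within the NMDA sum, Grin2a made up 13.6% ± 0.827 in shFabp7 and 11.1% ± 1.56 in shScr (SD, n = 3 each), and Grin3a 2.01% ± 0.215 in shFabp7 and 3.70% ± 1.32 in shScr. The share of Grin1 was 48.2%, 49.6% and 46.6% in shFabp7 and 44.3%, 49.5% and 46.8% in shScr, which overlapped. Gria2 made up 31.9% ± 1.05 of the AMPA sum in shFabp7 and 30.1% ± 2.60 in shScr, also overlapping.

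**Figure D4:**
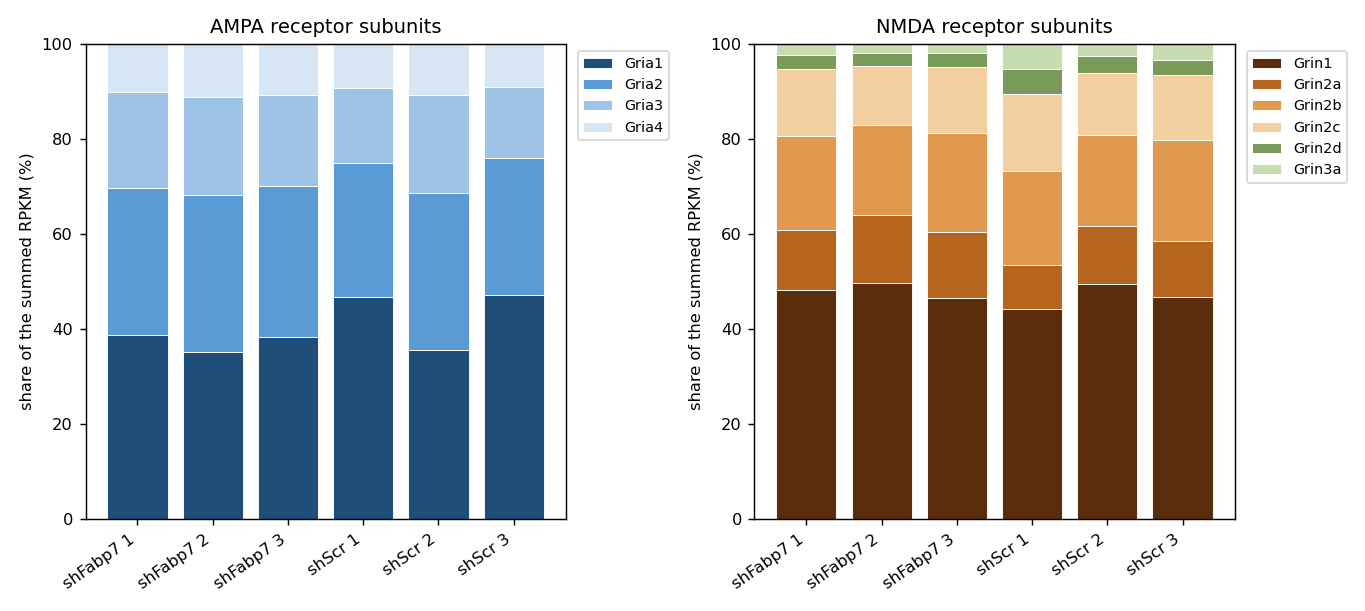
Share of each subunit in the summed RPKM of its family (%), one bar per library, shFabp7 libraries left of shScr libraries. Gria1 takes 35.2% to 38.8% of the AMPA sum in shFabp7 and 46.7%, 35.7% and 47.1% in shScr libraries 1 to 3, so the groups overlap, and Grin3a takes 5.16% of the NMDA sum in shScr library 1.

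Promoter sequence was found in the RefSeq table (GRCm38.p6) for 5 of the 10 genes. Those of Grin1 and Grin2c, the pair of this set whose groups did not overlap, are shown beside that of Gria2, whose level was nearly equal in the groups. Each runs from 250 bases before the start site to 50 after it, 5′ to 3′ on the minus strand, at chr2:25319138-25319437 for Grin1, chr11:115267194-115267493 for Grin2c and chr3:80802786-80803085 for Gria2. Capitals mark matches, on either strand, to the GC box GGGCGG, the E-box CACGTG or the NRF1 site.
Grin1: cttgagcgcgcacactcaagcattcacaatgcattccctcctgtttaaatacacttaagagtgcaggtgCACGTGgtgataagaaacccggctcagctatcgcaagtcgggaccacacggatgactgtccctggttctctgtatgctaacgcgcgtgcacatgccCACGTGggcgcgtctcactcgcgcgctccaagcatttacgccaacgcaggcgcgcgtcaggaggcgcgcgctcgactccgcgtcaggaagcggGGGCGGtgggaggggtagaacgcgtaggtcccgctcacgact
Grin2c: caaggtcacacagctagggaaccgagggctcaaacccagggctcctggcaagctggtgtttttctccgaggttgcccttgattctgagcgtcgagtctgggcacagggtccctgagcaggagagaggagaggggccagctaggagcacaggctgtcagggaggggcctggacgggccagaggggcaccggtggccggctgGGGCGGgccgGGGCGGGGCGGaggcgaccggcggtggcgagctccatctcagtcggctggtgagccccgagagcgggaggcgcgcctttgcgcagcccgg
Gria2: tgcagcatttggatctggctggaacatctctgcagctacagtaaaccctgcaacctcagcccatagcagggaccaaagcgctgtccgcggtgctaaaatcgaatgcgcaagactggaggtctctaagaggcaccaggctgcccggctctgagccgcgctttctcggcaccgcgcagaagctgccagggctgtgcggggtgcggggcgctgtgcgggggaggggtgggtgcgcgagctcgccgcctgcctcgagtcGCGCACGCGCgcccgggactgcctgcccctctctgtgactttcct

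Grin1 held 1 GC box and 2 E-boxes, Grin2c held 3 GC boxes, of which a neighbouring pair overlap, and Gria2 held 1 NRF1 site and 0 GC boxes. The CRE, TGACGTCA, was searched too and had 0 matches in the 5 promoters. Of 32851 promoters of this length, 35.7% held a GC box, 7.15% an E-box, 4.60% an NRF1 site and 1.79% the CRE. A match describes the letters only.

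Genes that assemble, place and regulate the receptors were described from lists of names, by their counts and medians from the same fit. Of 19 auxiliary genes, of AMPA receptors apart from Neto1 and Neto2 of kainate receptors, edgeR called 0 and 12 were above 0. Their median was 0.07, and 6 had an unadjusted p under 0.05, 5 higher (Neto2 among them) and 1 lower. Over all genes those shares were 8.44% higher and 8.32% lower. DESeq2 called 3 higher and 1 lower, against 2.25% and 1.80% of all genes. The most abundant were Olfm1, a secreted olfactomedin, at 0.22 ± 0.10 (SE), and Frrs1l, which helps assemble AMPA receptors in the endoplasmic reticulum, at 0.37 ± 0.12 (SE).

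Among the auxiliary genes, 3 more were chosen after their values were seen. Gsg1l, which slows AMPA receptor recovery, had 125, 128 and 133 CPM in shFabp7 and 88.4, 71.3 and 95.5 CPM in shScr, with groups well apart, a log2 fold change of 0.60 ± 0.10 (SE) and adjusted p-values of 0.0597 by edgeR and 4.99e-05 by DESeq2. Cacng2, which encodes stargazin, the founding member of the transmembrane AMPA receptor regulators, had 112, 132 and 118 CPM in shFabp7 and 71.6, 96.1 and 87.2 CPM in shScr. Its log2 fold change was 0.51 ± 0.11 (SE), and its adjusted p was 0.0961 by edgeR and 0.00263 by DESeq2. Cacng5, a related regulator, had 5.92, 6.87 and 5.44 CPM in shFabp7 and 22.3, 10.9 and 9.33 CPM in shScr, with shScr library 1 highest. The log2 fold change of Cacng5 was -1.22 ± 0.36 (SE), with an adjusted p of 0.191 by edgeR and 0.00232 by DESeq2. The sign of Gsg1l, Cacng2 and Cacng5 was the same in the 17 alternative fits, with ranges of 0.49 to 0.85, 0.28 to 0.61 and -1.45 to -0.56. Those fits reuse the libraries in which the 3 genes were chosen. As the groups of all 3 did not overlap, fits that only leave out libraries could hardly turn the sign.

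The 23 scaffold and trafficking genes had a median of 0.06, with 15 above 0, 0 called by edgeR, 5 higher at an unadjusted p under 0.05 (8.44% of all genes) and 2 higher by DESeq2 (2.25% of all genes). Nsf, an ATPase that keeps AMPA receptors at the surface, had -0.05 ± 0.07 (SE), and Dlg4, which encodes the postsynaptic scaffold PSD-95, had 0.20 ± 0.07 (SE). The 17 signalling partners of NMDA receptors had a median of 0.17, with 13 above 0, 0 called by edgeR, 8 at an unadjusted p under 0.05 (7 higher and 1 lower, against 8.44% and 8.32% of all genes) and 3 higher by DESeq2 (2.25% of all genes). Camk2a, the kinase that binds GluN2B, had 3989, 4463 and 3975 CPM in shFabp7 and 2723, 3479 and 3389 CPM in shScr. Its groups did not overlap, and the log2 fold change was 0.37 ± 0.10 (SE), with an adjusted p of 0.128 by edgeR and 0.0155 by DESeq2.

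Supply of the co-agonists glycine and D-serine was covered by 14 genes, of which 12 were tested. Their median was 0.01, with 7 above 0 and 0 called by edgeR (2 higher and 2 lower at an unadjusted p under 0.05, against 8.44% and 8.32% of all genes, and 1 lower by DESeq2, against 1.80%). Psat1, of serine synthesis, had 0.16 ± 0.06 (SE), and Slc1a4, a neutral amino acid transporter, had 0.02 ± 0.06 (SE). Of 3 genes of the adenosine deaminase family of RNA editing enzymes, edgeR called 0 (1 lower at an unadjusted p under 0.05, against 8.32% of all genes, and 1 lower by DESeq2, against 1.80%). Adarb1, whose enzyme edits the Gria2 transcript, had 0.15 ± 0.09 (SE), and Adar had -0.01 ± 0.07 (SE). Kainate and delta receptor genes, the nearest relatives of the 10, had a median of -0.10 over 7 tested, with 0 called by edgeR, 2 lower at an unadjusted p under 0.05 (8.32% of all genes) and 1 lower by DESeq2 (1.80% of all genes). Grik5 had 0.04 ± 0.06 (SE) and Grik3 0.16 ± 0.07 (SE). Grin3b, the remaining NMDA subunit gene, had 9 to 11 reads in shFabp7 and 5 to 7 in shScr and was not tested.

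**Figure D5:**
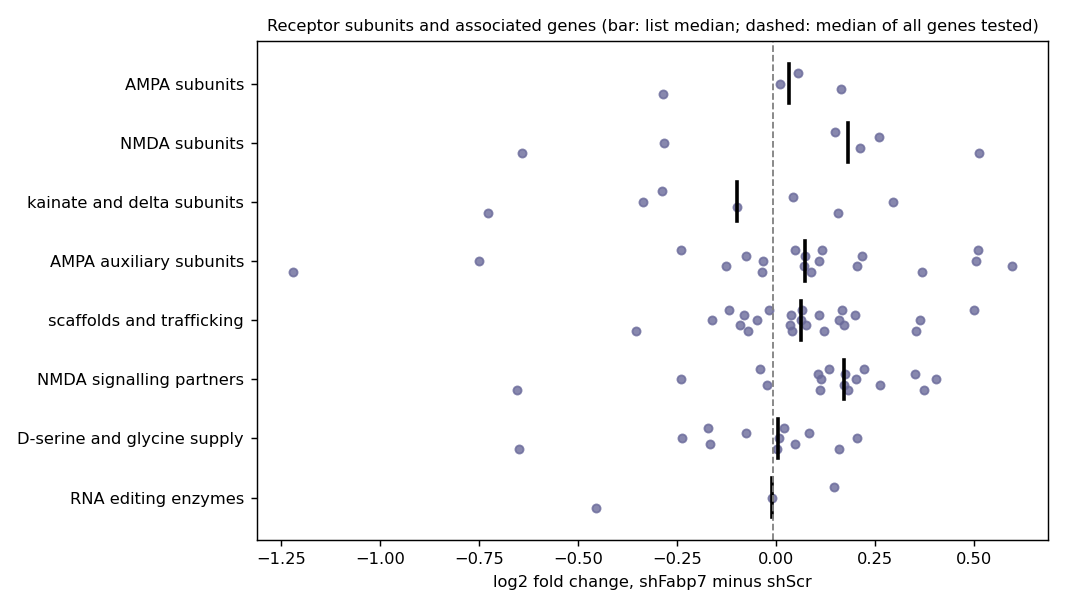
Log2 fold change of each gene, shFabp7 minus shScr, for the AMPA and NMDA subunits and 6 lists of associated genes, with list medians as black bars and the median of all genes tested (-0.01) as a dashed line. Medians run from -0.10 for kainate and delta subunits to 0.18 for NMDA subunits, and each list holds genes on both sides of 0.

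By Pearson correlation of log2 CPM over the 6 libraries, among 10204 other genes with at least 10 CPM on average, the patterns most like Grin1 were those of Sema7a, Scn8a and Kcns1, each at r = 0.998. Like Grin1, they were lowest in shScr library 1, and 8.04% of the genes compared had an r above 0.9 with it. The patterns most like Gria2 were those of Irs1 at 0.988, Rad21 at 0.987 and Bcl11a at 0.985, with 1.22% of genes above 0.9. These are descriptions of 6 points that share their libraries.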

How the data were processed

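Messenger RNA of 6 cortex libraries was sequenced after a stranded preparation, per the labels' protocols. Each deposited file holds the authors' unnormalized read counts per gene, laid out as featureCounts writes them. Tools listed in the submitters' processing notes, without their roles, are STAR 2.5.2b, Trimmomatic 0.36, Subread 1.5.2 and DESeq2, and GRCm39 is the build listed. No source used here says how strand was counted. Of 49056 gene IDs found in GENCODE M21 (GRCm38), 91.4% had the position given in the files, so coordinates are read as GRCm38. Gene symbols came from a reference table, which matched 48970 of 49315 IDs. The file headers also give the length of the exon sequence, deposited by the authors beside the counts and used here for RPKM.

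Genes were filtered with filterByExpr and scaled by TMM. Groups were compared by the quasi-likelihood F test of edgeR 4.0.16 in R 4.3.3 (robust, group alone), adjusted by Benjamini-Hochberg over all 17185 genes tested. Fold changes are shFabp7 minus shScr, each SE is the log2 fold change over the square root of F, and intervals are 95%. Log2 CPM used a prior count of 2. Libraries held 16914012 to 18991235 counts. Alternatives were upper-quartile or RLE factors, DESeq2 1.42.0, no filter, 1 CPM in 3 libraries, limma-voom (limma 3.58.1) and the replicate number as a block. Others were an excitatory neuron score, a regional score or sex as covariates, a threshold of 0.1, and libraries left out. Sex was read from the counts of Xist and of Y-linked genes. By that reading, shFabp7 libraries 2 and 3 and shScr library 3 were female, and the others male.

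The subunits and all lists were chosen with earlier results of these data known. Named were the 10 subunits, Fabp7, up to 4 called members of each associated list or, with under 2 called, the 2 most abundant, and 3 genes most like Grin1 and Gria2 in pattern. Others named were chosen after their values were seen. A gene that this rule names is not reported here.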

Additional observations from a re-analysis of the deposited data

How the results depend on the processing

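Grin2b, Grin2c and Grin2d kept their direction and stayed uncalled under the 17 alternative fits, and Grin1, Grin2a and Grin3a kept their direction. For the 5 subunits whose groups did not overlap, fits that only leave out libraries could hardly turn the direction. The number of genes called by edgeR, 20 in the test reported, was 696 with DESeq2, 1617 with no filter, 109 with limma-voom, 58 with the excitatory score, 10 with the regional score, 7 with sex as a covariate, 120 without shScr libraries 1 and 3 and 292 at the threshold of 0.1. Leaving out 1 library gave 0 to 900 genes, lowest without shFabp7 library 2 or 3 and highest without shScr library 2. Of the 10 subunits, 2 were called with DESeq2 (Grin2a at 0.52 and Grin3a at -0.64), 4 with no filter (Gria1 at -0.29, Grin1 at 0.26, Grin2a at 0.51 and Grin3a at -0.64), and 0 to 2 with 1 library left out. Over those refits Gria1 ran from -0.44 to -0.18, Gria2 from -0.0285 to 0.044 and Grin3a from -0.81 to -0.39, and the number of subunits whose groups did not overlap from 5 to 8. This last count without a library was chosen after seeing the data, and it could not fall below 5.

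Direction turned for Gria2 with the excitatory score (-0.062), the regional score (-0.062), sex (-3.16e-06), without shFabp7 library 2 (-0.0016), without shScr library 1 (-0.0285) and without shScr libraries 1 and 3 (-0.051). It turned for Gria4 with those scores (-0.0054 and -0.0097) and without shScr libraries 1 and 3 (-0.021), where Gria3 (-0.033) and Gria1 (0.073) turned too. That fit leaves 1 shScr library, assumed to vary like the others. The cause was not tested.

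Medians of associated genes moved for kainate and delta subunits to 0.026 in the regional fit and to 0.018 where shScr library 2 stood alone. The median of the auxiliary genes moved to 0.18 in the same small fit. NMDA signalling partners had 0.091 with the excitatory score, 0.089 with the regional score and 0.13 in that fit. Co-agonist genes had -0.069 and -0.020 with the 2 scores, and -0.036 to 0.031 with 1 library left out. The 4 differences of ratios and shares kept their direction, but their size moved with 1 library left out. The log2 ratio of Grin2a to Grin2b differed by 0.20 to 0.42 and that of Gria1 to Gria2 by -0.48 to -0.17. The Gria2 share differed by 0.877 to 3.30 percentage points and the Grin1 share by 0.0286 to 2.62, lowest without shScr library 1 and highest without shScr library 2 for both shares.

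Replicate numbers were not shown to pair the samples: deviations of same-numbered libraries correlated at 0.08, 0.15 and 0.06. Those of differently numbered libraries ran from -0.18 to 0.10, so a weak pairing was not excluded. With the replicate number as a block, edgeR called 629 genes and 2 subunits, Grin2a at 0.53 and Grin3a at -0.61.

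With 3 libraries a group, the single-gene permutation test cannot pass 0.05. Grin2d had 365 to 621 reads per library and Grin3a 452 to 1084, the fewest of the 10, so their levels carry the most counting error.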
